A study of Mus musculus with 6 samples.

Results

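miR-31 and miR-22 are microRNAs (miRNAs) known as regulators of the hair cycle, and their levels were measured in the skin of mice with alopecia areata (AA). They were taken as the probes for the unstarred mature strands named mmu-miR-31 and mmu-miR-22, which are 2 of the 707 mouse miRNA probes on the chip, with 5 spots each on every array. Both were among the 157 probes that passed the detection filter and were tested. Whole dorsal skin of C3H/HeJ mice was profiled on 6 arrays of 1 colour (Cy3), 3 from skin with hair loss in mice with spontaneous AA and 3 from normal haired skin of unaffected control mice. C3H/HeJ is an inbred strain in which some animals develop AA, an autoimmune loss of hair, without any treatment, and all 6 arrays share this strain. The labels give no age, sex or hair cycle stage. A design note speaks of several samples from each mouse without tying them to arrays, so the p-values reflect only how far these arrays differ among themselves, and part of that may be technical. Arrays are numbered by the replicate number in their label.

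Hair follicles pass through growth (anagen), regression (catagen) and rest (telogen), and miRNAs are short RNAs that repress messenger RNAs matching their seed, which are bases 2 to 8. In mouse skin miR-31 is known as a miRNA of growing follicles and of proliferating epidermis, and it represses among others the growth factor gene Fgf10 and the transcription factor gene Dlx3. miR-22 is made in many tissues, and in mouse skin it is known to promote entry into regression and to repress Dlx3 and Foxn1, which drive hair shaft differentiation. AA is known as an attack of T cells on growing follicles.

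The sequences that the probes target are shown because they settle which strand was measured and how far each probe lies from any other. The first pair below are the mature strands with the seed in capitals, 5′ to 3′.
miR-31: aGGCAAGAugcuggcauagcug
miR-22: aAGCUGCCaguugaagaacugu
Both were identical to RefSeq entries of build GRCm38.p6, miR-31 to mmu-miR-31-5p at chr4:88910614-88910635 on the minus strand and miR-22 to mmu-miR-22-3p at chr11:75463772-75463793 on the plus strand. Their hairpin precursors, from RefSeq, follow with the probed mature strand in capitals.
Mir31: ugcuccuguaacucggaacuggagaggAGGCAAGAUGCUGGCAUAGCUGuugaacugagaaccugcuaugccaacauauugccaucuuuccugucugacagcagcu
Mir22: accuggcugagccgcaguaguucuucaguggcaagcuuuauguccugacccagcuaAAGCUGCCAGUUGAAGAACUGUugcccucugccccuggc
miR-31 is thus the 5′ arm of its hairpin and miR-22 the 3′ arm. In RefSeq, Mir22 overlaps its host gene Mir22hg and Mir31 overlaps the gene model Gm49890. The seeds of the pair differ, and 0 of the other miRNA probes shared the seed of either. The nearest other probe target was 6 edits from miR-31 (miR-449c) and 8 edits from miR-22 (miR-764-3p). The chip also carries the opposite strands, miR-31* and miR-22*, printed here with the seed in capitals.
miR-31*: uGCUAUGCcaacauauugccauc
miR-22*: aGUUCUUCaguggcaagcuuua

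Arrays differed in background and in signal. The median raw intensity of empty spots ran from 209 to 530 on AA arrays and from 168 to 274 on unaffected arrays. On them 115 to 157 against 97 to 202 of the 707 probes were detected, that is, had a mean raw intensity above the 95th percentile of the empty spots. On AA replicate 2 and unaffected replicate 1 the empty spots (490 and 274) were brighter than the median miRNA probe (391 and 168). There they may overstate the background, so detection and multiples of the empty-spot median are not strictly comparable between arrays. The 88 probes detected throughout had a median signal of 1.46 to 3.33 times the empty-spot median on AA arrays and 4.20 to 16.9 times on unaffected arrays. Unaffected replicate 1 was not clearly nearest to its own group: over the 157 tested miRNAs it correlated at 0.90 and 0.85 with AA replicates 1 and 2, and at 0.73 and 0.84 with unaffected replicates 2 and 3. Its correlation with AA replicate 3 was 0.80. The differences of the pair, their spread, the within-array comparisons, the hair cycle list and the nearest profiles are therefore also given without it. All 7 keratinocyte probes (such as miR-203 and miR-205) passed the filter, although miR-141 was detected on only 1 AA and 2 unaffected arrays.

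miR-31 was above the detection limit on all 6 arrays. Its raw intensity, the mean of 5 spots ± SD, was 369 ± 18.3, 1257 ± 87.0 and 614 ± 26.4 on AA arrays 1 to 3. It was 1836 ± 49.4, 209 ± 15.0 and 630 ± 34.0 on unaffected arrays 1 to 3. The brightest and the dimmest array were thus both unaffected ones, and the spots of an array agreed closely, with a coefficient of variation of 2.69% to 7.17%. Against the empty-spot median of the same array, the AA arrays stood at 1.77, 2.56 and 1.16 times and the unaffected arrays at 6.70, 1.25 and 3.33 times. The signal was therefore close to background on AA replicate 3, where the 95th percentile of the empty spots was 572, and on unaffected replicate 2, where it was 197.

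miR-22 was likewise above the detection limit on all 6 arrays. Its raw intensity was 468 ± 51.1, 1027 ± 58.1 and 904 ± 61.3 on AA arrays 1 to 3, and 821 ± 54.5, 4037 ± 129 and 1694 ± 57.4 on unaffected arrays 1 to 3. The brightest array was unaffected replicate 2, the array on which miR-31 was dimmest. These intensities were 2.24, 2.09 and 1.70 times the empty-spot median in AA and 3.00, 24.1 and 8.95 times in unaffected skin. Each AA array was nearer to its empty spots than each unaffected array, which was also so of the median over the 88 probes detected throughout.

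**Figure D1:**
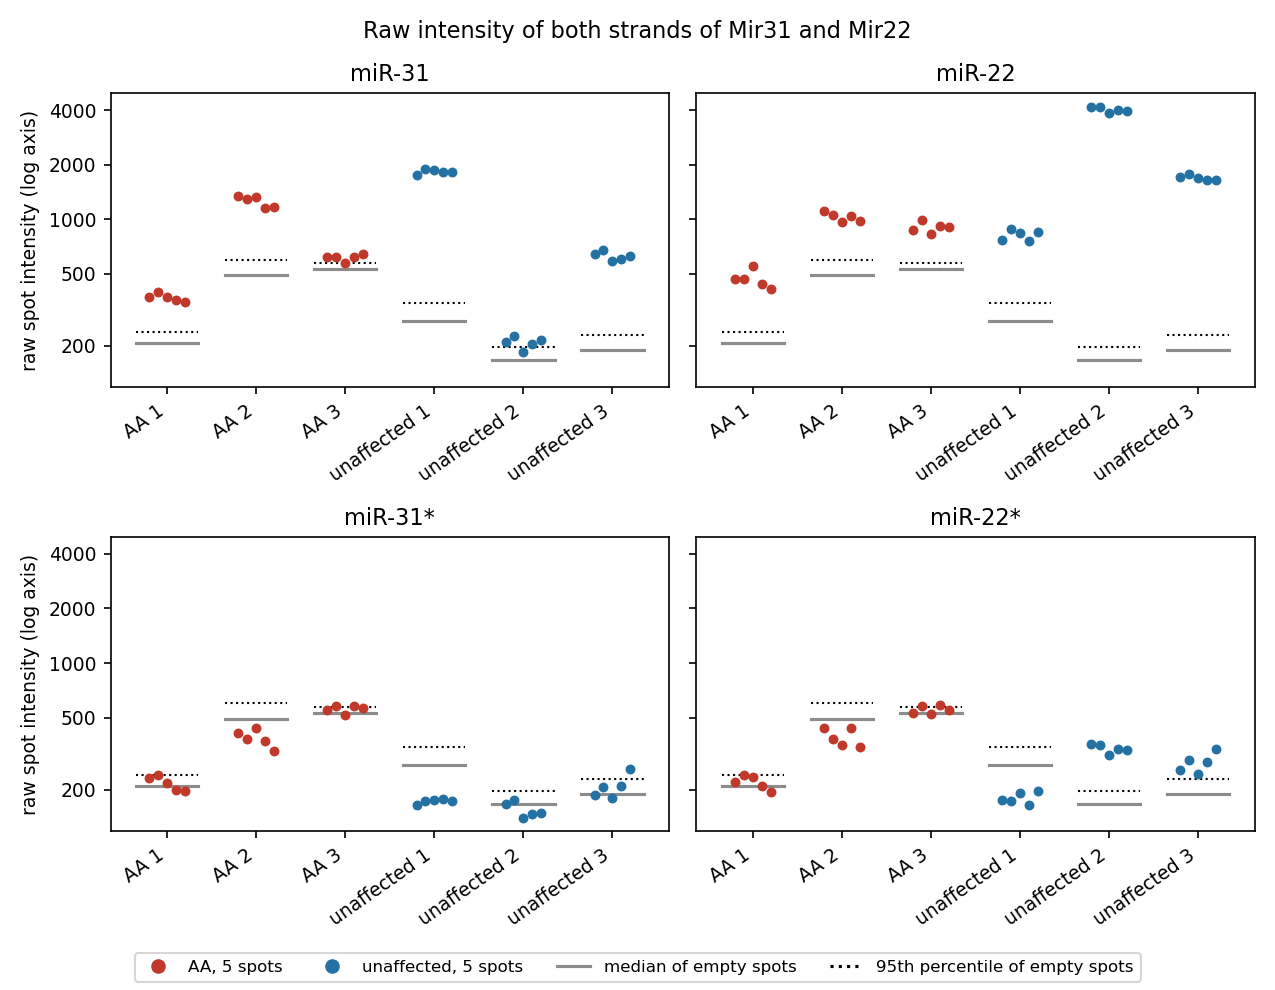
Raw intensity (vertical log axis) of the 5 spots of each probe on the 3 AA and the 3 unaffected arrays, with the median and the 95th percentile of the empty spots of the array as lines. miR-31 was brightest on unaffected replicate 1 (mean 1836) and dimmest on unaffected replicate 2 (209), where miR-22 was brightest (4037). The star strands lay near the empty spots, except miR-22* on unaffected replicates 2 and 3.

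The star strands gave little signal. miR-31* was detected on 0 of the 6 arrays, at 0.79 to 1.06 times the empty-spot median in AA and 0.63 to 1.10 times in unaffected skin. For miR-22* the detected arrays were 0 of 3 in AA and 2 of 3 in unaffected skin, replicates 2 and 3, at 2.02 and 1.49 times the empty-spot median. Relative to the empty spots, both strands of Mir22 stood highest on unaffected replicate 2. Neither star strand reached the filter of 3 arrays, so no test was made. No fold is given for miR-22*, since the lowest signals of detected probes on the AA arrays averaged above its unaffected mean.

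After background correction and quantile normalization, miR-31 stood at 8.83, 9.70 and 8.56 (normalized log2 intensity) on AA arrays 1 to 3, against 10.96, 7.28 and 8.41 on unaffected arrays 1 to 3. All 3 AA arrays lay between the lowest and the highest unaffected array, an arrangement that held for 18 of the 157 tested miRNAs. AA skin averaged 9.03 ± 0.59 and unaffected skin 8.88 ± 1.89 (SD, n = 3 each). The log2 difference, AA minus unaffected, was 0.15 (SE 0.79, 95% interval -1.60 to 1.89, limma adjusted p = 0.981). On the linear scale the interval runs from 0.330 to 3.72 times the unaffected level, so a difference of that size in either direction lies within the error of these arrays. By the exact permutation test over arrays (two-sided) p was 0.8, where 3 arrays against 3 cannot go below 0.1.

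miR-22 stood at 9.36, 9.08 and 10.37 on AA arrays 1 to 3, against 9.67, 10.48 and 9.74 on unaffected arrays 1 to 3. AA replicates 1 and 2 lay below every unaffected array and AA replicate 3 lay among them, so the groups overlapped. AA skin averaged 9.60 ± 0.68 and unaffected skin 9.96 ± 0.45 (SD, n = 3 each). The log2 difference was -0.36 (SE 0.45, 95% interval -1.36 to 0.65, limma adjusted p = 0.810). This leaves a range of 0.389 to 1.57 times the unaffected level. The exact permutation p was 0.5 (two-sided). Neither difference exceeded the spread between arrays.

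**Figure D2:**
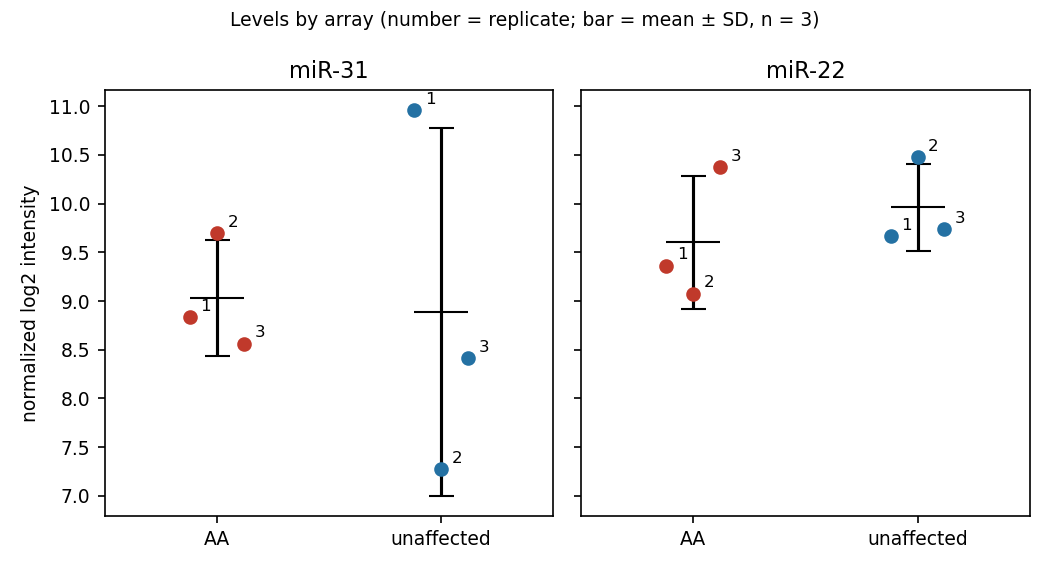
Normalized log2 intensity of miR-31 and miR-22 (vertical axis) on the AA and unaffected arrays, each point an array with its replicate number, with the mean ± SD of 3 arrays. For miR-31 the AA arrays (8.56 to 9.70) lie within the span of the unaffected arrays (7.28 to 10.96), and for miR-22 the groups overlap.

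Neither member was among the smallest p-values on the chip. Of the 157 tested miRNAs 0 (0%) passed an adjusted p under 0.05 in limma, and 12 (7.64%) had an unadjusted p under 0.05, miR-31 and miR-22 not among them. Ranked from the smallest p, miR-22 was at 86 of 157 and miR-31 at 133. The median absolute log2 difference over all tested miRNAs was 0.38, against 0.15 for miR-31 and 0.36 for miR-22.

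miR-31 varied widely among unaffected arrays, which is given here as a description. Its SD of 1.89 there ranked 6 of 157, where the median tested miRNA had 0.44, and its highest and lowest unaffected arrays were 12.9-fold apart. The lowest stood at 1.25 times its empty-spot median, so this fold rests on a value near background. Among AA arrays its SD of 0.59 ranked 54 of 157, against a median of 0.46, and the range was 2.19-fold. The probes detected throughout stood nearer to the empty spots on AA arrays, so the ranges of the groups are not strictly comparable. miR-22 ranked 38 in AA (range 2.46-fold) and 76 in unaffected skin (range 1.76-fold). Unaffected replicate 1 was the highest and unaffected replicate 2 the lowest of the 6 arrays for miR-31 in all 11 ways of making the values that were compared. The log2 span between them was 2.97 to 5.99 across these. Without unaffected replicate 1 the SD of miR-31 over the other 2 unaffected arrays was 0.79, which ranked 14 of 157 (median 0.24), and these arrays were 2.18-fold apart.

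The authors' deposited table of processed intensities gave miR-31 at 326, 631 and 259 on AA arrays 1 to 3, against 1708, 48.1 and 270 on unaffected arrays 1 to 3. It gave miR-22 at 536, 533 and 1375 on the AA arrays, against 701, 1545 and 778 in unaffected skin. On these values, too, the highest and the lowest level of miR-31 fell on unaffected replicates 1 and 2.

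The comparison of miR-31 depended on single unaffected arrays. Leaving out unaffected replicate 1 gave a log2 difference of 1.16 (SE 0.50, limma adjusted p = 0.233), and leaving out unaffected replicate 2 gave -0.65 (SE 0.57, adjusted p = 0.887). The direction also turned without AA replicate 2 (-0.20) and without unaffected replicate 3 (-0.12). miR-22 kept a lower mean in AA throughout: its log2 difference was -0.49 without unaffected replicate 1, -0.098 without AA replicate 2 and -0.097 without unaffected replicate 2. It was -0.78 without AA replicate 3. The median difference of all tested miRNAs was -0.093 without unaffected replicate 2, so miR-22 lay almost at that median there. This median was -0.042 without AA replicate 2, 0.026 without unaffected replicate 1 and 0.080 without AA replicate 3. With all 157 miRNAs tested, 5 passed (3.18%) without unaffected replicate 1 and 2 (1.27%) without unaffected replicate 2, and neither miR-31 nor miR-22 was among them. The 5 were miR-1937a and miR-1937b (higher in AA) and miR-1, miR-26b and miR-30b (lower), and the 2 were miR-2861 and miR-705 (both higher), named here after their values were seen.

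In the reported setting the arrays ran in opposite orders for the pair within each group. Among AA arrays miR-31 was highest on replicate 2 and lowest on replicate 3, while miR-22 was highest on replicate 3 and lowest on replicate 2. Among unaffected arrays miR-31 was highest on replicate 1 and lowest on replicate 2, while miR-22 was highest on replicate 2 and lowest on replicate 1. The middle array was replicate 1 in AA and replicate 3 in unaffected skin for both. This full reversal of order was present in AA in 7 and in unaffected skin in 9 of the 11 ways of making the values. Scaling by the 75th percentile of the probes detected throughout showed it in neither group. In unaffected skin the middle and the lowest array of miR-22 were close, at 9.74 and 9.67. Orders of only 3 arrays can be reversed without any relation of the pair. How often other pairs of miRNAs show such a reversal was not determined.

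**Figure D3:**
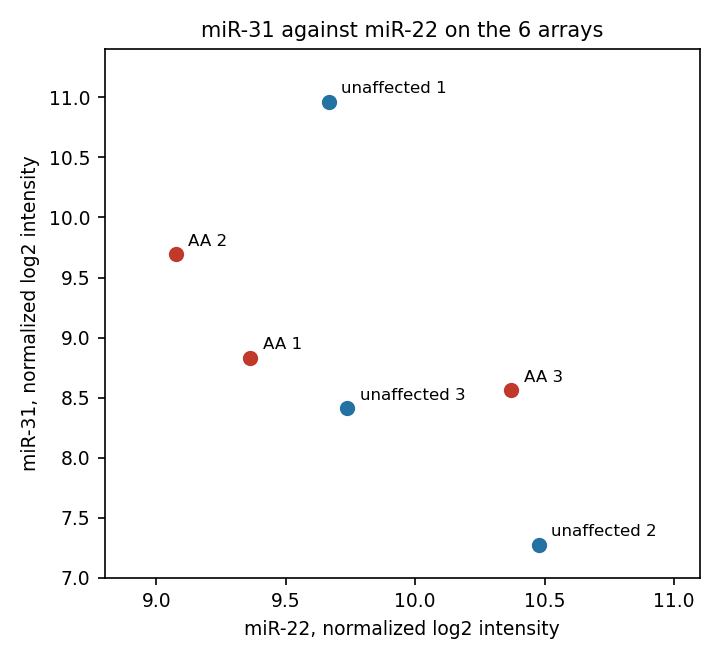
Normalized log2 intensity of miR-31 (vertical axis) against miR-22 (horizontal axis), each point an array, AA in red and unaffected in blue. Unaffected replicate 1 is highest in miR-31 (10.96), with miR-22 at 9.67. Unaffected replicate 2 is lowest in miR-31 (7.28) and highest in miR-22 (10.48). The AA arrays lie between them in miR-31, and AA replicates 1 and 2 lie below both in miR-22.

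In a difference between probes of one array a scaling factor of that array cancels, but background correction and quantile normalization do not. The difference also does not rank the abundance of the pair. miR-31 minus miR-22 was -0.53, 0.62 and -1.81 (log2) on AA arrays 1 to 3, against 1.30, -3.20 and -1.33 on unaffected arrays 1 to 3. This averaged -0.57 ± 1.21 in AA skin and -1.08 ± 2.26 in unaffected skin (SD, n = 3 each), a difference of 0.50. The exact permutation p was 0.8 (two-sided, adjusted over 3 within-array comparisons p = 1). The difference was 1.65 without unaffected replicate 1 (exact permutation p = 0.3), -0.55 without unaffected replicate 2 and 0.30 without unaffected replicate 3. It was -0.098 without AA replicate 2 and 1.25 without AA replicate 3. With all arrays it was 1.20 without normalization and 0.24 with the GC trend removed (exact permutation p = 0.6 and 0.9). The highest and the lowest array were again both unaffected ones.

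Since miR-31 is made in keratinocytes, each probe was also set against the mean of the 7 keratinocyte probes on the same array. miR-31 stood at -0.996, -0.42 and -1.14 (log2, relative to that mean) on AA arrays 1 to 3, against 0.80, -2.63 and -2.18 on unaffected arrays 1 to 3. Unaffected replicate 1 lay above every AA array, and unaffected replicates 2 and 3 lay below every one. The means differed by 0.48 (exact permutation p = 0.8, adjusted p = 1). The difference was 1.51 without unaffected replicate 1 (exact permutation p = 0.1, the smallest that 3 arrays against 2 allow), -0.19 without unaffected replicate 2 and 0.025 without unaffected replicate 3. It was 0.27 without AA replicate 2 and 0.75 without AA replicate 3. miR-22 stood at -0.47, -1.04 and 0.67 on the AA arrays, against -0.49, 0.57 and -0.85 in unaffected skin, a difference of -0.020 (exact permutation p = 1, adjusted p = 1). Without unaffected replicate 1 the miR-22 difference was -0.14 (exact permutation p = 0.8), and it ranged from -0.50 without AA replicate 3 to 0.36 without AA replicate 2 or unaffected replicate 2.

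Markers of other cells moved between the arrays too. The 7 keratinocyte probes averaged 9.83, 10.12 and 9.70 (normalized log2) on AA arrays 1 to 3, against 10.16, 9.91 and 10.59 on unaffected arrays 1 to 3, so the array highest in miR-31 was not the highest in keratinocyte miRNAs. The 4 skeletal muscle probes averaged 10.52, 10.29 and 11.47 in AA and 10.41, 12.61 and 12.04 in unaffected skin. Among unaffected arrays they were thus lowest where miR-31 was highest and highest where it was lowest, and in both groups they followed the order of miR-22 at its top array. Their summed raw intensity was 10.9 to 23.2 times the empty-spot median in AA and 24.3 to 469 times in unaffected skin. For keratinocyte probes these sums were 14.1 to 55.1 and 67.3 to 249 times. The median over the probes detected throughout was also lower on each AA array, at 1.46 to 3.33 times against 4.20 to 16.9 times. The sums therefore cannot set these cell types apart from the signal of the whole array. On the normalized values the groups overlapped for both sets of probes.

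Fibroblast and smooth muscle probes (5 of 5 tested) averaged 9.84 to 10.74 in AA and 10.19 to 10.58 in unaffected skin. Of the 5 leukocyte probes, miR-142-3p, miR-142-5p and miR-155 were detected on no array. Of the leukocyte probes tested, miR-150 of lymphocytes averaged 9.45 ± 0.38 in AA skin against 8.71 ± 0.40 in unaffected skin, and miR-223 of myeloid cells 7.60 ± 0.71 against 8.13 ± 0.43 (SD, n = 3 each). Their log2 differences thus had opposite signs, 0.74 (SE 0.40, limma adjusted p = 0.588) and -0.52 (SE 0.46, adjusted p = 0.740). The endothelial probe miR-126-3p stood at 9.60, 9.25 and 8.71 on the AA arrays, against 9.02, 11.24 and 10.35 in unaffected skin. The red cell probes, miR-451 and miR-486, averaged 10.76, 8.17 and 12.52 in AA and 11.50, 10.58 and 10.62 in unaffected skin. The part of these cell types in the levels of miR-31 and miR-22 was not tested, and in whole skin fewer cells of a type cannot be told apart from less RNA per cell.

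The other 14 miRNAs on a list of hair cycle and skin follicle miRNAs showed no calls either. Of the 12 that passed the filter, 4 had higher and 8 lower means in AA, 0 passed the adjusted threshold (adjusted p = 0.588 to 0.981), and 0 had an unadjusted p under 0.05. The median log2 difference of the 12 was -0.21, against -0.039 over all tested miRNAs. The 12 include all 7 keratinocyte probes, of which 1 had a higher and 6 a lower mean in AA. The counts of the list are thus not separate from those of the keratinocyte probes. The groups did not overlap for 1 of the 12, against 11.5% of all tested miRNAs (4.46% higher and 7.01% lower in AA). That one was miR-200a, an epithelial miRNA, at 8.41, 8.10 and 8.57 in AA and 9.17, 8.79 and 9.53 in unaffected skin (log2 difference -0.80, SE 0.38, limma adjusted p = 0.588).

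The largest absolute difference on the list was that of miR-21, a miRNA induced in inflamed tissue, with a log2 difference of 1.01 (SE 0.68, limma adjusted p = 0.684). It stood at 9.83, 11.14 and 10.46 on the AA arrays, against 7.76, 10.28 and 10.37 on unaffected arrays 1 to 3, so its lowest array, on which it was not detected, was the one on which miR-31 was highest. Without unaffected replicate 1 the difference of miR-21 was 0.16 (SE 0.49, adjusted p = 0.866). miR-24, known in skin for repressing the stem cell factor Tcf3, had 0.33 (SE 0.37), and miR-214, known to repress beta-catenin, 0.48 (SE 0.44). miR-205, which sustains follicle stem cells, had -0.34 (SE 0.53), and miR-203, which promotes epidermal differentiation, -0.048 (SE 0.46). miR-125b-5p, known from follicle stem cells, had -0.079 (SE 0.46). miR-29b and miR-218 did not reach the filter. Without unaffected replicate 1, 5 of the 12 had higher and 7 lower means in AA, with a median difference of -0.29 and 0 calls (smallest adjusted p = 0.268, that of miR-29a).

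**Figure D4:**
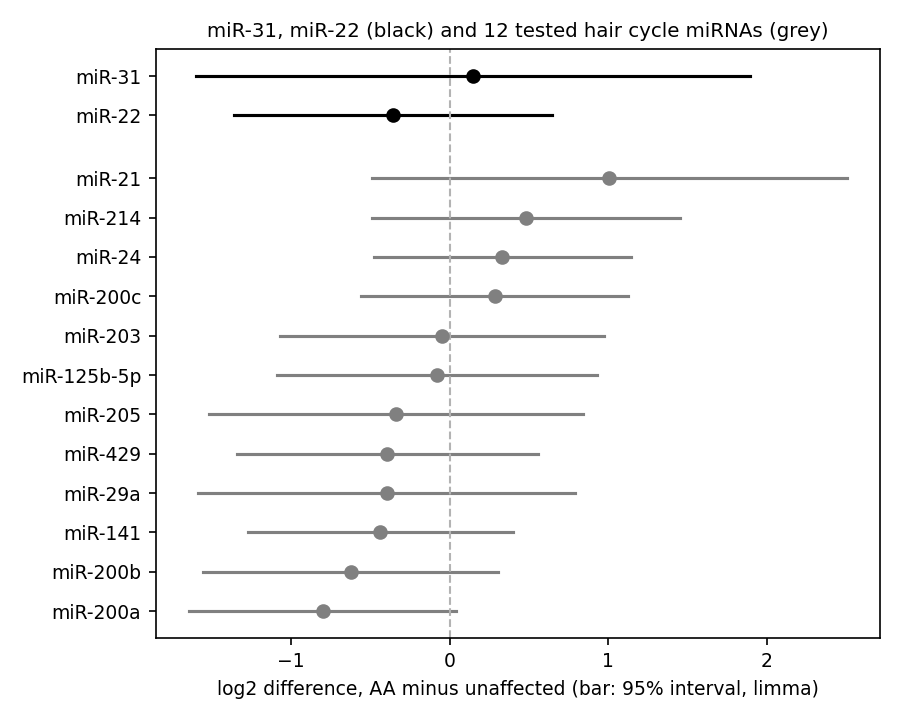
Log2 difference, AA minus unaffected, with its 95% interval from limma (horizontal axis) for miR-31 and miR-22 in black and 12 hair cycle miRNAs in grey. Every interval includes 0, and that of miR-31 (-1.60 to 1.89) is among the widest.

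The profiles nearest to each member over the 6 arrays were found by the root mean square difference of log2 values after each profile was centred on its own mean. For miR-31 these were miR-92a (0.44), miR-1937c (0.48) and miR-1894-3p (0.56), where the median over all tested miRNAs was 1.22. miR-92a, of the miR-17-92 family, stood at 10.87, 10.91 and 10.02 on the AA arrays, against 11.65, 8.93 and 10.22 on unaffected arrays 1 to 3. Its highest and its lowest level fell on the same unaffected arrays as those of miR-31, which the choice of the nearest profile favours. For miR-22 the nearest were miR-223 (0.12), miR-467f (0.29) and miR-2133 (0.32), against a median of 0.74. miR-223, a miRNA of neutrophils and other myeloid cells, stood at 7.23, 7.15 and 8.42 on the AA arrays, against 7.75, 8.60 and 8.03 in unaffected skin. miR-223 was above the detection limit on 3 of the 6 arrays, and its match rests in part on values near background. Without unaffected replicate 1 the nearest were miR-92a, miR-690 and miR-1894-3p for miR-31 and miR-466f-3p, miR-467f and miR-223 for miR-22.

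Among the scalings to the 75th percentile and the omission of normalization, both members moved with the rest of the chip. The scalings to the 75th percentile and the omission of normalization shifted the median difference of all tested miRNAs to 0.53 (probes detected on all arrays), -0.95 (all probes) and -0.84 (no normalization), in place of -0.039. miR-31 was at 0.88, -0.60 and -0.50 under these, which is 0.35 above the median in each. miR-22 was at -0.32, -1.80 and -1.69, which is 0.85 below the median in each, and its smallest limma adjusted p was 0.0708. These settings differ by a constant for each array, so the distance from the median is the same in each by construction and counts once. In the reported setting it was 0.19 for miR-31 and -0.32 for miR-22. Between the reported setting and scaling by probes detected on all arrays, miR-22 hardly moved, from -0.36 to -0.32. The median rose from -0.039 to 0.53.

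**Figure D5:**
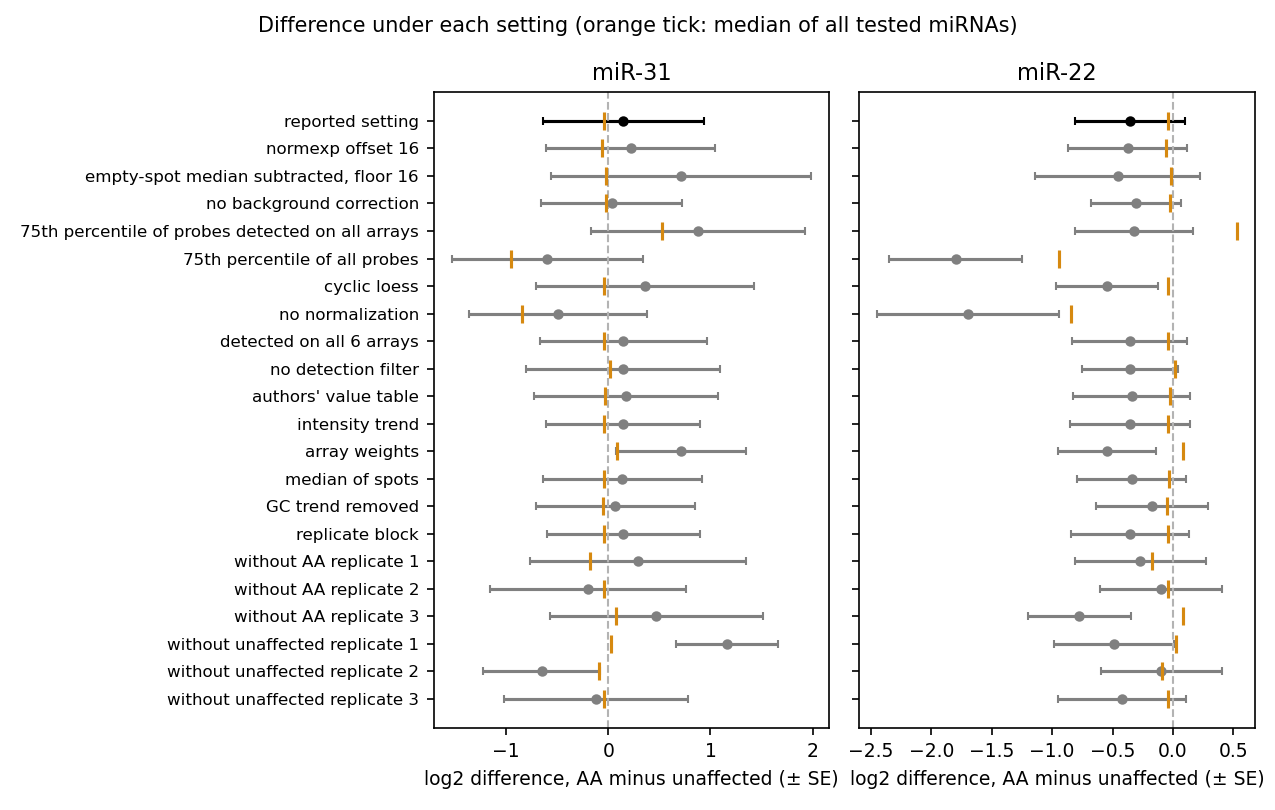
Log2 difference, AA minus unaffected, ± SE (horizontal axis) for miR-31 and miR-22 under the reported setting and each alternative, with the median of all tested miRNAs as an orange tick. miR-31 ran from -0.65 to 1.16 across the alternatives, and miR-22 from -1.80 to -0.097, below 0 in each.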

How the data were processed

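The authors deposited scanner files of raw mean intensity per spot, not background-subtracted or normalized, per the file headers and values, for 3968 spots an array. The authors' deposited value table holds processed linear intensity; how it was made is not stated by any label or header; it showed no centring, and its column medians were 34.2 to 44.3. Set against empty-spot-subtracted intensity over 88 probes, its log2 values correlated at 0.989 to 1.00 per array, with median ratios of 0.400 to 3.72. Per the labels' protocols, poly(A)-tailed RNA was tagged for Cy3 staining; biotin-labelled cRNA is also named, and which applied is not known.

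Raw intensity was corrected by normexp (offset 50, all spots) in limma 3.58.1 (R 4.3.3), log2 values of 5 spots were averaged, and arrays were quantile-normalized over 707 probes. Probes above the 95th percentile of the 145 empty and background spots on at least 3 arrays were tested by limma (two-sided, Benjamini-Hochberg over 157). The offset compresses dim differences, and the number of arrays limits precision. On simulated data (20 runs) 22.5% of 2-fold changes were recovered, 77% at 4-fold and 93% at 8-fold. These are averages over randomly chosen tested miRNAs with noise drawn independently for each array. In each run many miRNAs were changed at once, with the 2-, 4- and 8-fold sizes mixed, which eases the Benjamini-Hochberg threshold. Recovery of a lone change was not simulated. miR-31 varied more than most (SE 0.79, SD over the 6 arrays ranked 10 of 157), and its own share was not determined.

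Same-numbered arrays deviated together at correlations of 0.14, -0.10 and -0.12, so numbers were not taken as pairs. Members, lists and tests were chosen with earlier results of these data known. Named beside the members were the star strands, the 3 nearest profiles of each, and the hair cycle miRNAs whose groups did not overlap or whose difference was largest (2); miR-24, miR-203, miR-205, miR-214 and miR-125b-5p were added for their roles, after their values were seen. Alternatives changed background correction, scaling, filter, source, variance model, spot summary, GC trend and block, and left out each array. Files name no slide or scan date, so no such batch was tested.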

Additional observations from a re-analysis of the deposited data

How the results depend on the processing

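In 21 alternatives, 0 gave miR-31 or miR-22 an adjusted p under 0.05 in limma (0.233 to 0.998 and 0.0708 to 0.974). miR-22 had a lower mean in AA than in unaffected skin in all 21, at log2 differences of -1.80 to -0.097. At -0.097, without unaffected replicate 2, the median of all tested miRNAs was -0.093. miR-31 was negative in 5. In 2 of these, arrays were not normalized (-0.50) or had the 75th percentile over all probes as scale (-0.60); there the whole chip shifted alike, with median differences of -0.84 and -0.95, and miR-31 stayed 0.35 above both. The other 3 left out an array. With single arrays left out, miR-31 ran from -0.65 to 1.16, miR-22 from -0.78 to -0.097, and the count of miRNAs past the threshold from 0 to 5. It was 5 without unaffected replicate 1 and 2 without unaffected replicate 2, against 0 otherwise. Relative to the keratinocyte probes, miR-31 ran from -0.19 to 1.51 and miR-22 from -0.50 to 0.36 with arrays left out, and miR-22 was 0.054 with the empty-spot median subtracted. miR-31 minus miR-22 ran from -0.55 to 1.65 with arrays left out, and from 0.24 to 1.20 in the other alternatives. The replicate block left the differences at 0.15 (miR-31, limma adjusted p = 0.984) and -0.36 (miR-22, adjusted p = 0.838), with 0 miRNAs called, and changed no call; the labels do not say that numbers pair mice. For miR-31 the distance from background limits the precision on AA replicate 3 and unaffected replicate 2. The cause of these changes was not tested.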
